A study of Mus musculus with 4 samples.

Results

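Vitamin A handling was described here through 9 genes, of 28692 genes counted in the series: *Lrat*, *Rbp4*, *Rdh10*, *Dhrs3*, *Adh1*, *Aldh1a1*, *Aldh1a2*, *Aldh1a3* and *Cyp26b1*. They were chosen by their known part in storing vitamin A, carrying it, turning it into retinoic acid and breaking retinoic acid down, and all 9 had a row in every matrix. The question was which stromal cells of the small intestine and colon held the transcripts of each step.

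The data were single-cell RNA-seq counts of mesenchymal stromal cells (MSC) from the lamina propria (connective tissue that supports the gut epithelium) of untreated female C57BL6/Nrj mice aged 8 to 10 weeks. Each intestine gave 2 droplet libraries, called replicates 1 and 2, from 2 independent experiments in which 3 mice were pooled. Peyer's patches and the outer muscle coat had been removed, and live cells had been sorted that lacked CD45, Ter119, CD31, BP3, EpCAM and L1CAM and carried Itgb1, so that blood, endothelial, epithelial and glial cells were depleted. The groups shared strain, sex, age and sort, and each library stood for a pool of mice rather than for a single animal.

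Vitamin A reaches tissues as retinol, which cells can store by joining it to a fatty acid. To be used as a signal, retinol is oxidised to retinal and then to retinoic acid, which binds nuclear receptors, and enzymes that reduce retinal or degrade retinoic acid hold the signal down. In the gut, retinoic acid is known to imprint gut homing on lymphocytes and to shape the local immune response, and stromal cells are among its known producers.

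*Lrat* (ENSMUSG00000028003, GRCm38 chr3:82892579-82903973, minus strand) encodes the enzyme that esterifies retinol for storage, and *Rbp4* (ENSMUSG00000024990, chr19:38116629-38125281, minus strand) encodes the secreted retinol carrier. *Rdh10* (ENSMUSG00000025921, chr1:16105774-16133734, plus strand) and *Adh1* (ENSMUSG00000074207, chr3:138260991-138290698, plus strand) encode dehydrogenases that oxidise retinol to retinal, and *Dhrs3* (ENSMUSG00000066026, chr4:144892827-144928209, plus strand) encodes a reductase that turns retinal back to retinol. *Aldh1a1* (ENSMUSG00000053279, chr19:20492715-20643465, plus strand), *Aldh1a2* (ENSMUSG00000013584, chr9:71215789-71296243, plus strand) and *Aldh1a3* (ENSMUSG00000015134, chr7:66390890-66427517, minus strand) encode the 3 retinaldehyde dehydrogenases that make retinoic acid. *Cyp26b1* (ENSMUSG00000063415, chr6:84571414-84593908, minus strand) encodes a cytochrome P450 that degrades it. All 9 are annotated as protein coding.

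RefSeq promoter windows (GRCm38.p6, 250 bases before to 50 bases after a transcript start) were found for 7 of the 9 genes, with 11 windows in all. Those of *Lrat* and *Rbp4* are shown because these genes differed most between the intestines, in opposite directions. They are printed 5′ to 3′ on the strand of the gene, and capitals mark either the letters TATAA or a hexamer that nuclear receptors of the retinoid family recognise (AGGTCA or GGGTCA or AGTTCA or GGTTCA, on either strand).
*Lrat*, chr3:82903925-82904224, minus strand: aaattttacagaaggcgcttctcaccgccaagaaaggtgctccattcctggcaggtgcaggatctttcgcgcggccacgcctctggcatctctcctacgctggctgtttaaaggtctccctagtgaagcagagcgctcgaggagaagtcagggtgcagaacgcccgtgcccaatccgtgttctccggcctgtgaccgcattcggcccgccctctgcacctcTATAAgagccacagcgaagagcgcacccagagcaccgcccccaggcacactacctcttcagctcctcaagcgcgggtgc
*Rbp4*, chr19:38124762-38125061, minus strand: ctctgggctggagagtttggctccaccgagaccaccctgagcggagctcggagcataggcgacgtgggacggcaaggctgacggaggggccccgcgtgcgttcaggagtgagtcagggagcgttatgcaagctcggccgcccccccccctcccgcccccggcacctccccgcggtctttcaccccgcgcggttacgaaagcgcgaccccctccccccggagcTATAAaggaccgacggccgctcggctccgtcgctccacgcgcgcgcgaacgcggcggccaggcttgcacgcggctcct
*Rbp4*, chr19:38125272-38125571, minus strand: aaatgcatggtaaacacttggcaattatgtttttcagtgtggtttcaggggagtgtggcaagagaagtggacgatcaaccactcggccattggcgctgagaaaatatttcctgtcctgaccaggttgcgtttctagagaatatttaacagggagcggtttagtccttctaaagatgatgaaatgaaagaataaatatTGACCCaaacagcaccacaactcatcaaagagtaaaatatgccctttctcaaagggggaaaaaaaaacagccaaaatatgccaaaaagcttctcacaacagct
TATAA stood 29 bases before the *Lrat* start and 28 bases before the *Rbp4* start of the first *Rbp4* window, and in 3 of the 11 member windows against 24.9% of 32851 promoters of the same length. A receptor hexamer occurred in 2 of the 11 windows (the second *Rbp4* window, 53 bases before the start, and a window of *Aldh1a1*) against 43.7% of promoters. None of the 11 windows held a pair of hexamers in the same direction with 5 bases between them (0.0974% of promoters) or 2 bases between them (0.268%). These matches describe letters in a window and not bound sites.

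Depth differed between the libraries more by replicate than by intestine. Total counts of unique molecular identifiers (UMIs, single captured molecules) ranged from 14341443 to 52269372 per library over 2061 to 16795 cell barcodes, and 1828 to 14350 cells were kept, with a median of 2734.5 to 8810 UMIs per cell. Replicate 1 libraries held fewer cells with more UMIs each, and were processed with another Cell Ranger version than replicate 2, so that replicate number and software version cannot be told apart. The labels do not assign the 3′ or 5′ kit to libraries, so a kit difference between replicates was not tested. Same-numbered libraries shared 7 (replicate 1) and 55 (replicate 2) barcodes, and every other pair 0 to 2. Levels are given as UMIs of the gene per 1000000 UMIs of a cell class (CPM), from the sum over the cells of that class in a library.

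Cells were assigned to 6 classes from their marker genes: 4 classes of fibroblasts (FB), smooth muscle cells (SMC) and pericytes. PDGFRαhi FB, which lie under the epithelium, held 669 to 2140 CPM of *Pdgfra* in the 4 libraries, against at most 234 CPM in the other FB. CD81+ FB held 410 to 751 CPM of *Cd81*. The remaining FB were split by their *Fgfr2* level into Fgfr2-high FB (116 to 370 CPM of *Fgfr2*) and Fgfr2-low FB (56.5 to 132 CPM), a gate and not a cell type, with the small intestinal and colonic levels overlapping between the gates. SMC were marked by *Actg2* (936 to 3960 CPM) and pericytes by *Rgs5* (2780 to 4930 CPM). A class held 155 to 6753 cells per library for FB, 81 to 835 for SMC and 31 to 101 for pericytes, numbers that the sort helped to set. Classes came from clusters, and gating single cells by the same markers did not always give the same class. Of cells classed both ways, 75.8% and 63.3% agreed in small intestine replicates 1 and 2, and 88.4% and 81.0% in colon replicates 1 and 2.

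**Figure D1:**
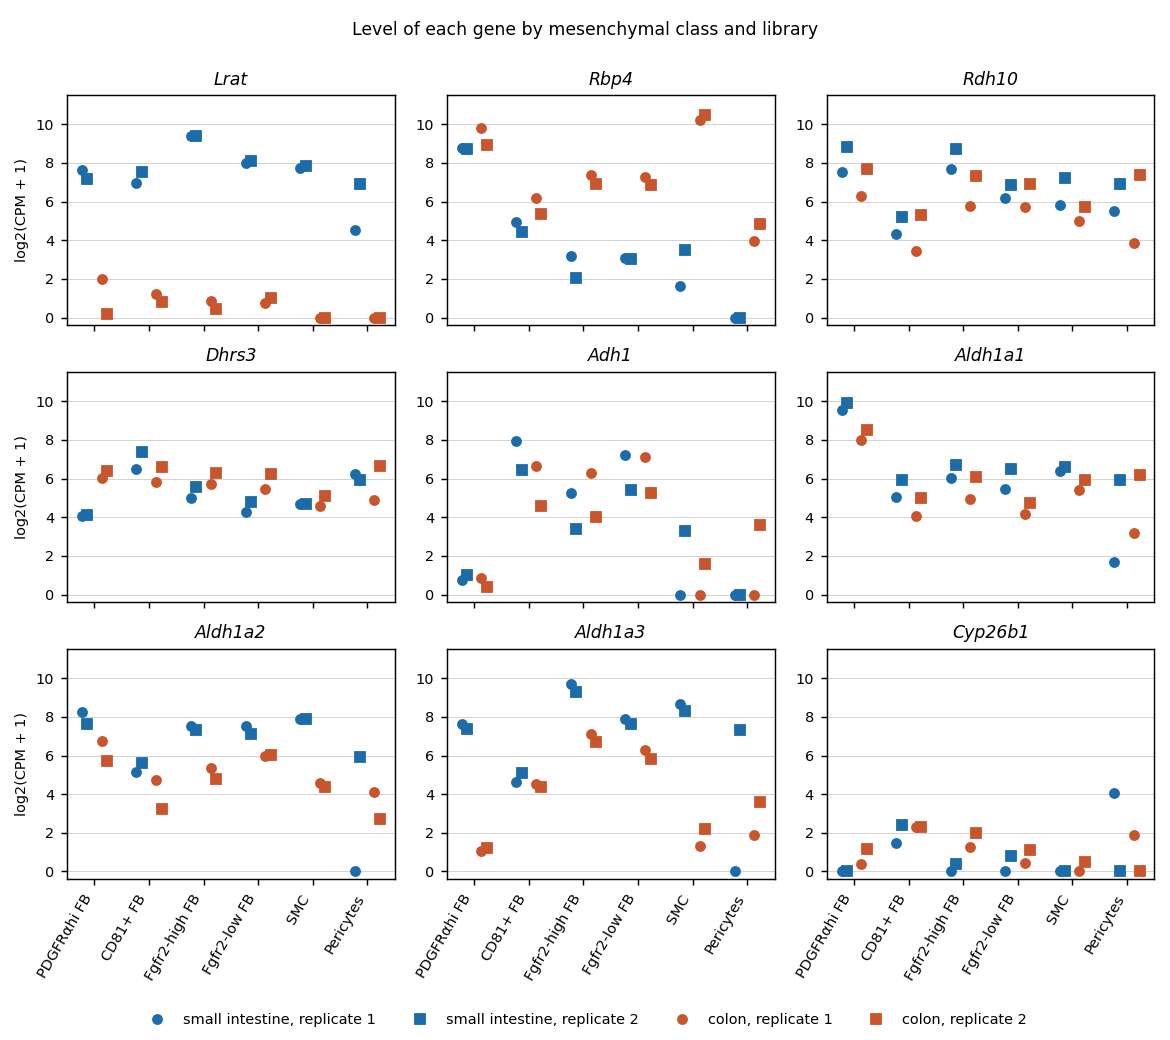
Level of each of the 9 genes as log2(CPM + 1) on the y axis in the 6 cell classes on the x axis, with small intestine in blue, colon in orange, replicate 1 as circles and replicate 2 as squares. *Lrat* lay at or above 22.5 CPM in every small intestinal class sum and at or below 3.03 CPM in every colonic one, while *Rbp4* was lower in the small intestinal than in the colonic SMC, Fgfr2-high FB and Fgfr2-low FB.

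The steps of vitamin A handling were spread over different classes. Storage (*Lrat*) was highest in Fgfr2-high FB of the small intestine and nearly absent from the colon. The carrier *Rbp4* was highest in PDGFRαhi FB of the small intestine and in SMC of the colon. Of the enzymes that make retinoic acid, *Aldh1a1* was highest in PDGFRαhi FB and *Aldh1a3* in Fgfr2-high FB, while *Dhrs3*, which turns retinal back, was highest in small intestinal CD81+ FB among the FB. The breakdown gene *Cyp26b1* was highest in endothelial cells that had passed the sort, of which replicate 2 held few.

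Colon was compared with small intestine within each class by the quasi-likelihood test of edgeR on summed UMIs, and calls needed both an adjusted p (Benjamini-Hochberg) under 0.05 and a change of over 1.5 on the log2 scale. With 2 libraries per intestine, p-values measure the spread between libraries of pooled mice. Part of this spread was shared by same-numbered libraries, whose deviations from the group means correlated (r = 0.79 over 13802 genes). In Fgfr2-high FB 4 of 8 members tested were called, against 1.43% of 11860 genes, and 1 was higher and 3 were lower in colon, against 0.877% and 0.556% of genes. SMC also had 4 calls, of 7 members tested, against 2.55% of 9544 genes, with 1 higher (0.754% of genes) and 3 lower (1.79%). PDGFRαhi FB had 2 calls of 7 against 1.56% of 11497 genes, with 1 higher (0.826%) and 1 lower (0.731%). Fgfr2-low FB had 2 of 8 against 1.77% of 11982 genes, with 1 higher (0.768%) and 1 lower (1%). CD81+ FB had 1 call of 9, against 0.783% of 11490 genes, with 0 higher (0.279%) and 1 lower (0.505%). In the sum of all FB 1 of 9 members was called, against 0.732% of 13802 genes, with 0 higher (0.384%) and 1 lower (0.348%).

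Members not tested had too few UMIs in the class, namely *Adh1* in PDGFRαhi FB and SMC and *Cyp26b1* in all classes but CD81+ FB and the sum of all FB. In pericytes only *Rdh10*, *Dhrs3* and *Aldh1a1* were tested and 0 were called, where edgeR called 0% of 5137 genes (120 genes at an unadjusted p under 0.05) and DESeq2 called 0 of these members and 4 genes in all. A member could pass the filter on low counts through its higher intestine alone, so these counts describe the members and are no measure of their share. The median log2 fold change of the members tested was -1.31 in PDGFRαhi FB, -0.81 in CD81+ FB, -0.95 in Fgfr2-high FB, -0.86 in Fgfr2-low FB and -1.30 in SMC, where the median over all genes tested lay between -0.01 and 0.02.

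**Figure D2:**
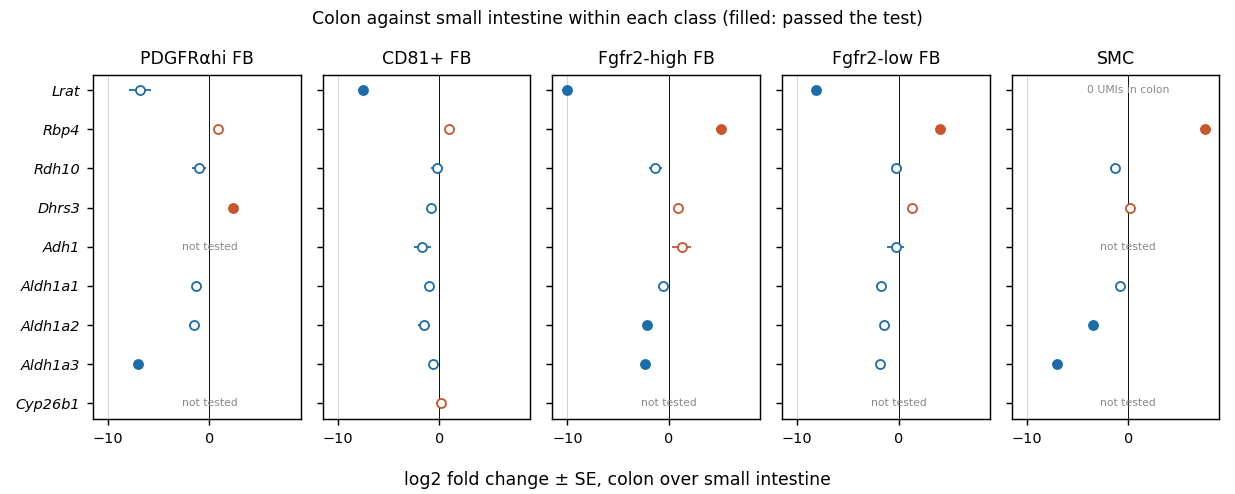
Log2 fold change of colon over small intestine (x axis, bars of ± 1 SE) for the 9 genes (y axis) in the 4 FB classes and SMC, filled where the gene passed the edgeR test and marked where it was not tested or had 0 UMIs in the colon. Points for *Lrat* and *Aldh1a3* lie left of 0 in each panel where they are drawn, and those for *Rbp4* lie right of 0 in SMC, Fgfr2-high FB and Fgfr2-low FB.

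*Lrat*, the storage enzyme, was the member that differed most between the intestines. In Fgfr2-high FB it stood at 673 CPM in replicate 1 and 674 CPM in replicate 2 of the small intestine, and at 0.789 and 0.349 CPM in the colon. These levels came from 671 and 4422 UMIs in the small intestine against 4 and 3 UMIs in the colon, and the groups did not overlap. The log2 fold change of colon over small intestine was -10.05 ± 0.45 (SE, edgeR adjusted p = 0.0147), and the adjusted p was 0.0938 without small intestine replicate 1 and 0.146 without small intestine replicate 2.

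Among the other small intestinal classes, *Lrat* stood at 252 and 270 CPM in Fgfr2-low FB and at 215 and 229 CPM in SMC. PDGFRαhi FB (197 and 145 CPM) and CD81+ FB (125 and 186 CPM) overlapped each other and lay below SMC. Pericytes, with 10 and 6 UMIs, were lowest at 22.5 and 119 CPM. The order was thus Fgfr2-high FB, Fgfr2-low FB and SMC, each apart from its neighbour in both libraries, followed by PDGFRαhi and CD81+ FB, whose order was not resolved.

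Colonic *Lrat* was at or near 0 in every class. It stood at 1.33 and 0.764 CPM in CD81+ FB, at 0.714 and 1.02 CPM in Fgfr2-low FB and at 3.03 and 0.152 CPM in PDGFRαhi FB, and SMC and pericytes held 0 UMIs in both colonic libraries. No colonic class sum held more than 19 UMIs, so that *Lrat* entered the class tests through its small intestinal counts. Over the 6 classes the colon gave 27 and 23 *Lrat* UMIs, against 2458 and 11996 in the small intestine.

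The fold change of *Lrat* was -7.53 ± 0.43 in CD81+ FB (edgeR adjusted p = 0.0135), a call kept when any single library was left out. In Fgfr2-low FB it was -8.19 ± 0.34 (adjusted p = 0.0227, and 0.116 without small intestine replicate 2), and in the sum of all FB -8.12 ± 0.66 (adjusted p = 0.0418, 0.09 and 0.124 without small intestine replicates 1 and 2, and 0.0952 with single cells gated). SMC passed with an adjusted p of 0.0045, and against a floor of 3 UMIs per library *Lrat* was at least 163-fold lower in the colon. PDGFRαhi FB, with a log2 fold change of -6.85 ± 1.12, did not pass (adjusted p = 0.0684), though the adjusted p was 4.72e-06 when colon replicate 1 was left out and 1.58e-04 when colon replicate 2 was. It was called there by DESeq2 (1.79e-13) and with replicate number as a block (0.00351). The directions were the same in both replicate pairs of each class.

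The share of cells with an *Lrat* UMI was compared after thinning each cell to 1000 UMIs, with exact binomial 95% intervals that cover counting error only. In small intestinal Fgfr2-high FB 42.6% (34.7 to 50.8%) and 46.9% (44.9 to 48.8%) of cells held an *Lrat* UMI, for replicates 1 and 2, and unthinned 87.1% and 73.3% did, at a median of 6474 and 2490 UMIs per cell. Fgfr2-low FB reached 22.1% and 22.8%, and PDGFRαhi FB, CD81+ FB and SMC lay between 11.8% and 16.0%. Endothelial cells, which should lack the gene, gave 0% in small intestine replicate 1 (upper limit 1.05%, and 0.287% unthinned at a median of 4408 UMIs). In colon replicate 1 endothelial cells also gave 0% (upper limit 1.53%). Colonic FB classes and SMC reached at most 0.690%, which is within that colonic limit.

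As Fgfr2-low FB were the most numerous cells, they held the largest part of the small intestinal *Lrat* UMIs, 42% in replicate 1 and 43.5% in replicate 2. Fgfr2-high FB held 27.3% and 36.9%, CD81+ FB 14.1% and 14.6%, PDGFRαhi FB 12% and 3.67% and SMC 4.19% and 1.31%. Level and number of cells thus put different classes first, and the sort and the yield of cells set these shares.

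**Figure D3:**
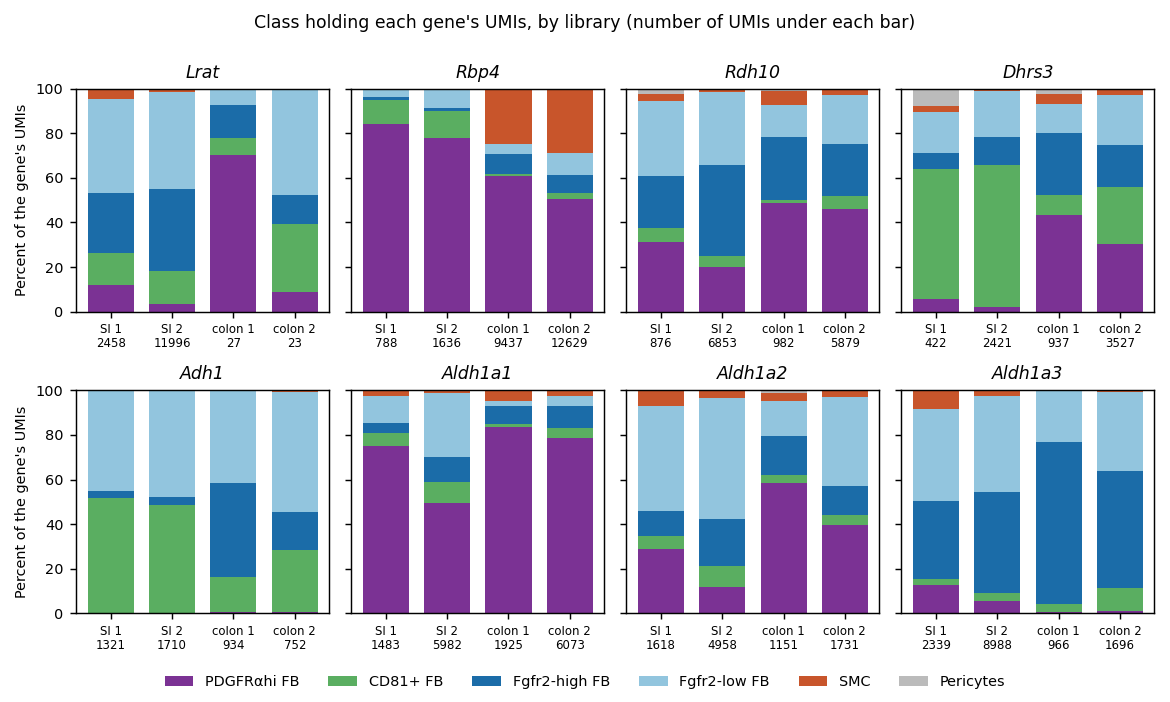
Percent of the UMIs of each gene (y axis) held by each of the 6 classes, stacked per library on the x axis with the number of UMIs under each bar, for the 8 genes other than *Cyp26b1*. Fgfr2-low FB take 42% and 43.5% of *Lrat* in the small intestine, and SMC take 24.8% and 28.6% of *Rbp4* in the colon against 0.127% and 0.428% in the small intestine.

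*Rbp4*, the retinol carrier, was mainly a gene of PDGFRαhi FB in the small intestine and a gene of FB and SMC in the colon. PDGFRαhi FB held 441 and 420 CPM in the small intestine and 912 and 486 CPM in the colon, higher in each colonic library but not called. Colonic SMC held 1180 and 1450 CPM, where small intestinal SMC held 2.08 and 10.2 CPM (1 and 7 UMIs). The remaining small intestinal FB ranged from 3.20 CPM in Fgfr2-high FB to 30.3 CPM in CD81+ FB.

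In colonic SMC the log2 fold change of *Rbp4* was 7.62 ± 0.57 (edgeR adjusted p = 0.00612), and the call was kept without any single library. When single cells were gated by the markers in place of clusters, it was 5.55 with an adjusted p of 0.0876. Thinned to 1000 UMIs, 50.6% (44.2 to 57.0%) and 58.9% (55.5 to 62.3%) of colonic SMC held an *Rbp4* UMI, against 0% (upper limit 4.45%) and 0.673% of small intestinal SMC. Endothelial cells of colon replicate 1 gave 0.417% at a median of 5069.5 UMIs per cell, far below the SMC of that library.

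Fgfr2-high FB moved the same way, from 8.02 and 3.20 CPM of *Rbp4* in the small intestine to 163 and 119 CPM in the colon. The log2 fold change was 5.13 ± 0.48 (edgeR adjusted p = 0.0264, and 0.0938 and 0.218 without small intestine replicates 1 and 2). Fgfr2-low FB went from 7.58 and 7.18 CPM to 155 and 115 CPM, with 4.08 ± 0.26 (adjusted p = 0.0227, and 0.0697 and 0.128 without the same libraries). CD81+ FB held 30.3 and 20.8 CPM in the small intestine and 71.9 and 39.5 CPM in the colon, higher in each colonic library but not called.

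PDGFRαhi FB held 84.3% and 77.8% of all *Rbp4* UMIs of the small intestinal classes, and 60.6% and 50.5% of those of the colon, where SMC held 24.8% and 28.6%. The UMIs of *Rbp4* summed to 788 and 1636 in the small intestine and to 9437 and 12629 in the colon.

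The SMC of the 2 intestines were not alike in other ways. Small intestinal SMC held 121 and 80.1 CPM of *Fgfr2* against 22.7 and 19.6 CPM in the colon. The 4 Fgfr2+ FB markers together went the other way, with 185 and 124 CPM against 197 and 199 CPM. SMC markers summed to 10300 to 15700 CPM in small intestinal SMC against 23200 to 32200 CPM in colonic SMC. CD81+ FB markers summed to 561 to 696 CPM against 116 to 169 CPM. Glial markers summed to 5.82 to 258 CPM against 2.40 to 11.6 CPM. Pericyte markers summed to 1310 to 1900 CPM against 567 to 593 CPM, and Igfbp5+ or CD90+ FB markers to 500 to 643 CPM against 268 to 315 CPM. PDGFRαhi FB markers overlapped, at 274 to 319 CPM against 316 to 355 CPM. The part of these other transcripts in the SMC results was not tested.

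*Rdh10*, which oxidises retinol to retinal, was found in every class. In the small intestine PDGFRαhi FB (183 and 454 CPM) and Fgfr2-high FB (206 and 426 CPM) were highest and not apart. In the colon PDGFRαhi FB held 76.1 and 206 CPM, Fgfr2-high FB 54.2 and 159 CPM and Fgfr2-low FB 51.4 and 120 CPM. CD81+ FB were the lowest FB, with 18.8 and 36.1 CPM in the small intestine and 9.98 and 38.8 CPM in the colon.

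Replicate 2 lay above replicate 1 for *Rdh10* in each of the 6 classes and in both intestines, by more than the classes at the top differed. In no class was *Rdh10* called. Its log2 fold change was -1.34 ± 0.65 in Fgfr2-high FB (edgeR adjusted p = 0.525) and -1.30 in SMC (adjusted p = 0.338), and both were called only without colon replicate 2 (adjusted p = 0.0429 and 0.0271). Endothelial cells of replicate 1 held 7.61 CPM in the small intestine and 8.29 CPM in the colon. The few endothelial cells of replicate 2 held 200 CPM (3 UMIs in 5 cells) and 63.0 CPM (10 UMIs in 24 cells).

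*Adh1*, a second oxidising enzyme with a broad range of alcohols as substrates, had nearly the reverse pattern over classes. It stood at 247 and 87.4 CPM in small intestinal CD81+ FB, at 147 and 42.1 CPM in Fgfr2-low FB and at 37.1 and 9.61 CPM in Fgfr2-high FB. In PDGFRαhi FB of all 4 libraries it lay below 1 CPM (0.305 to 0.989), and SMC held 0 to 8.73 CPM. PDGFRαhi FB, among the highest in *Rdh10*, were thus the lowest FB in *Adh1*.

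Colonic *Adh1* stood at 99.2 and 22.8 CPM in CD81+ FB, 139 and 37.2 CPM in Fgfr2-low FB and 77.1 and 15.1 CPM in Fgfr2-high FB. Here replicate 1 was above replicate 2 in these 3 classes, the opposite of *Rdh10*. In CD81+ FB the colon was lower within each replicate pair, with a log2 fold change of -1.64 (edgeR adjusted p = 0.674). With replicate number as a block it was -1.74 (adjusted p = 1.92e-07), the 1 setting beside a fit without a filter in which *Adh1* was called there.

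*Dhrs3*, the reductase that returns retinal to retinol, was led among small intestinal FB by CD81+ FB, at 88.8 and 164 CPM. Fgfr2-high FB held 31.1 and 45.9 CPM, Fgfr2-low FB 18.6 and 26.2 CPM and PDGFRαhi FB 16.0 and 16.2 CPM. In the colon this order was flatter, with CD81+ FB at 55.2 and 97.0 CPM, PDGFRαhi FB at 64.8 and 82.0 CPM, Fgfr2-high FB at 51.7 and 77.3 CPM and Fgfr2-low FB at 42.8 and 73.9 CPM. All 4 colonic FB classes overlapped.

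PDGFRαhi FB carried the called change of *Dhrs3*. Its log2 fold change there was 2.35 ± 0.31 (edgeR adjusted p = 0.0457), and the adjusted p was 0.238 and 0.28 without small intestine replicates 1 and 2. The call was also lost when single cells were gated. Small intestinal CD81+ FB held 58.3% and 63.8% of the *Dhrs3* UMIs, against 8.86% and 25.2% in the colon, where PDGFRαhi FB held 43.3% and 30.5%. Endothelial cells of replicate 1 had *Dhrs3* at 123 CPM in the small intestine and 83.7 CPM in the colon, so this gene was not limited to stroma.

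*Aldh1a1* was led by PDGFRαhi FB in every library. It stood at 739 and 975 CPM in small intestinal and at 257 and 363 CPM in colonic PDGFRαhi FB, while no other FB class exceeded 104 CPM and SMC held 42 to 96.1 CPM. PDGFRαhi FB held 74.9% and 49.5% of its UMIs in the small intestine and 83.7% and 78.5% in the colon. A near-identical neighbour on the opposite strand, *Aldh1a7* (chr19:20692953-20727562), gave 1 UMI in these classes, and reads that both genes could share make the *Aldh1a1* level uncertain.

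The small intestinal and colonic levels of *Aldh1a1* in PDGFRαhi FB did not overlap, but the fold change was called in no class by edgeR without a block (DESeq2 called it in Fgfr2-low FB, adjusted p = 0.0215). In Fgfr2-low FB it stood at 43.8 and 88.8 CPM in the small intestine and 16.8 and 25.9 CPM in the colon, with a log2 fold change of -1.71 ± 0.46 (edgeR adjusted p = 0.226, and 6.02e-12 with replicate number as a block). After thinning, 56.1% (48.3 to 63.6%) and 60.4% (57.7 to 63.0%) of small intestinal PDGFRαhi FB held an *Aldh1a1* UMI, and 22.2% (18.9 to 25.8%) and 31.1% (29.5 to 32.7%) of colonic ones. The endothelial shares were 0.575% in the small intestine and 0% in the colon (replicate 1).

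*Aldh1a2* was not led by a single small intestinal class. PDGFRαhi FB held 309 and 196 CPM, SMC 238 and 234 CPM, Fgfr2-high FB 186 and 161 CPM and Fgfr2-low FB 185 and 139 CPM. PDGFRαhi FB and SMC overlapped, and both lay above the Fgfr2-high and Fgfr2-low FB, which overlapped each other. CD81+ FB were lowest of the FB at 34.3 and 47.9 CPM. Endothelial cells of small intestine replicate 1 held 2.54 CPM.

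In the colon *Aldh1a2* was lower in each of these classes. Fgfr2-high FB fell to 40.4 and 26.5 CPM, a log2 fold change of -2.18 ± 0.28 (edgeR adjusted p = 0.0429, and 0.219 and 0.285 without small intestine replicates 1 and 2), a call also lost when single cells were gated by markers or the *Fgfr2* gate was stricter. SMC fell to at most 22.7 CPM in either library, with -3.44 ± 0.28 (adjusted p = 0.00838), a call kept without any single library. PDGFRαhi FB stood at 108 and 52.1 CPM (-1.54 ± 0.43, adjusted p = 0.201), CD81+ FB at 25.3 and 8.41 CPM (-1.52, adjusted p = 0.42) and Fgfr2-low FB at 63.1 and 64.0 CPM, all lower than in each small intestinal library without passing the test. The PDGFRαhi FB value was called by DESeq2 (0.0219) and with replicate number as a block (1.09e-06).

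*Aldh1a3* was led by Fgfr2-high FB. In the small intestine these cells held 822 and 623 CPM, SMC 413 and 312 CPM and Fgfr2-low FB 235 and 200 CPM. PDGFRαhi FB held 196 and 164 CPM and CD81+ FB 23.5 and 33.4 CPM. By these levels each class lay apart from the next. The mean over cells of each cell's own CPM overlapped between Fgfr2-low FB (235 and 205) and PDGFRαhi FB (229 and 180). After thinning, 57.4% (49.2 to 65.3%) and 43.8% (41.9 to 45.8%) of Fgfr2-high FB held a UMI, against 0% of endothelial cells in small intestine replicate 1 (upper limit 1.05%, with 5.08 CPM unthinned). Fgfr2-high FB held 35.1% and 45.5% of the small intestinal UMIs and 72.9% and 52.4% of the colonic UMIs of the gene.

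PDGFRαhi FB and SMC held nearly no *Aldh1a3* in the colon. PDGFRαhi FB stood at 1.12 and 1.30 CPM (24 UMIs in all), a log2 fold change of -7.02 ± 0.35 (edgeR adjusted p = 0.0195, and 0.0909 and 0.077 without small intestine replicates 1 and 2). SMC stood at 1.52 and 3.6 CPM (12 UMIs in all), with -7.03 ± 0.46 (adjusted p = 0.0045), a call kept without any single library. The share of thinned PDGFRαhi FB with an *Aldh1a3* UMI was 16.8% and 15.3% in the small intestine and 0.172% and 0.182% in the colon. SMC markers summed to 3420 to 5110 CPM in small intestinal and to 1690 to 3550 CPM in colonic PDGFRαhi FB. Pericyte markers summed to 960 to 1170 CPM against 126 to 164 CPM, and Igfbp5+ or CD90+ FB markers to 733 to 1040 CPM against 45.2 to 70.0 CPM. Fgfr2+ FB markers went the other way, at 213 to 381 CPM against 446 to 550 CPM. The part of these transcripts in the *Aldh1a3* result was not tested.

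Fgfr2-high FB kept *Aldh1a3* in the colon at a lower level, 139 and 103 CPM. The log2 fold change was -2.38 ± 0.29 (edgeR adjusted p = 0.0377, and 0.187 and 0.241 without small intestine replicates 1 and 2), and it was not called when the 4 libraries were clustered jointly or single cells were gated. Of thinned colonic cells 11.2% (8.65 to 14.3%) and 9.43% (8.19 to 10.8%) held a UMI. Fgfr2-low FB stood at 77.4 and 55.5 CPM (-1.83 ± 0.26, adjusted p = 0.0542, 8.25e-06 by DESeq2 and 6.25e-16 with replicate number as a block). CD81+ FB held 22.0 and 19.7 CPM, close to their small intestinal level.

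The mix of the 3 retinaldehyde dehydrogenases was then compared across classes and intestines, as percent of their summed UMIs, which is not adjusted for transcript length. In PDGFRαhi FB *Aldh1a1* made up 59.4% and 73.0% of the sum in the small intestine and 70.3% and 87.2% in the colon, and *Aldh1a3* went from 15.8% and 12.3% to 0.305% and 0.311%. In Fgfr2-high FB *Aldh1a3* made up the larger part in all libraries, 76.6% and 70.2% in the small intestine and 66.3% and 52.4% in the colon. SMC changed most in their mix. *Aldh1a3* was 56.2% and 48.5% of the sum in small intestinal SMC and 2.29% and 4.35% in colonic SMC, where *Aldh1a1* made up 63.4% and 71.5% (11.4% and 15.0% in the small intestine).

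Summed over the 3 enzymes, the level was lower in each colonic library than in either small intestinal library in each of 5 classes. It went from 1240 and 1340 CPM to 366 and 417 CPM in PDGFRαhi FB, from 1070 and 888 CPM to 209 and 197 CPM in Fgfr2-high FB and from 464 and 428 CPM to 157 and 145 CPM in Fgfr2-low FB. SMC went from 733 and 642 CPM to 66.2 and 82.8 CPM. CD81+ FB were lowest of these 5 classes in all 4 libraries, at 89.5 and 140 CPM in the small intestine and 63.2 and 59.1 CPM in the colon.

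**Figure D4:**
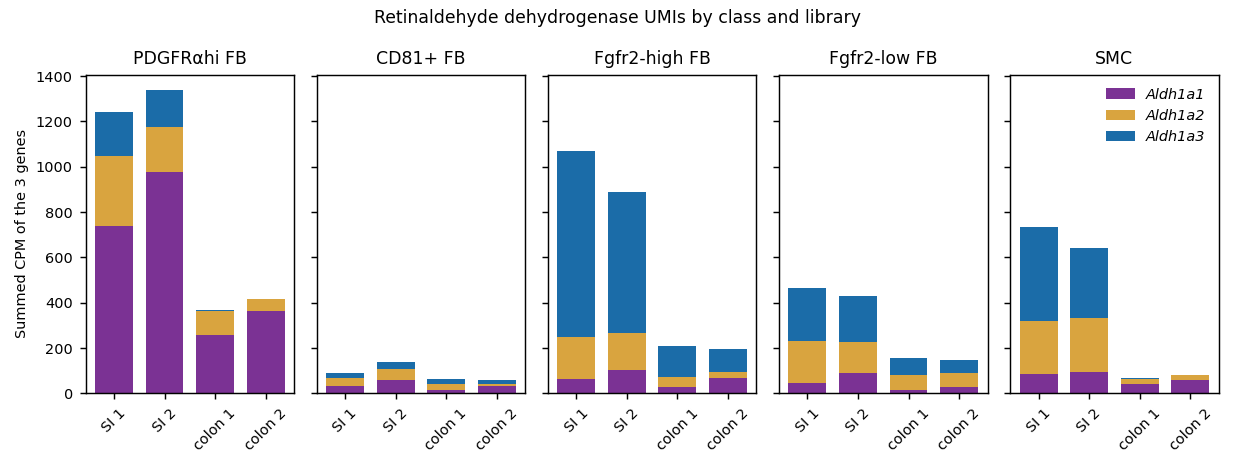
Summed level in CPM (y axis) of *Aldh1a1*, *Aldh1a2* and *Aldh1a3*, stacked by gene, in each library (x axis) of 5 classes. *Aldh1a3* takes 56.2% and 48.5% of the small intestinal SMC bars and 2.29% and 4.35% of the colonic ones, and the whole bar falls in the colon in each class.

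*Cyp26b1*, which degrades retinoic acid, had 178 UMIs over the 6 classes and 4 libraries (12 and 57 in the small intestine, 18 and 91 in the colon). It reached at most 4.35 CPM in any FB class, and small intestinal pericytes of replicate 1 held 15.8 CPM (7 UMIs). Endothelial markers summed to 397 CPM in these pericytes, against at most 28.2 CPM in the other pericyte sums, and their part was not tested. Endothelial cells that had passed the sort held 298 CPM in replicate 1 of the small intestine (469 UMIs) and 99.5 CPM in replicate 1 of the colon (132 UMIs). Replicate 2 had 5 and 24 endothelial cells only, at 200 CPM (3 UMIs) and 63.0 CPM (10 UMIs), so that there most UMIs of the gene lay in the 6 classes.

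The endothelial cells of replicate 1 fell into a cluster led by *Plvap* and *Flt1*, as in blood vessels, and another led by *Ccl21a* and *Lyve1*, as in lymphatics. In the small intestine *Cyp26b1* stood at 223 CPM in 252 cells of the *Plvap* and *Flt1* cluster (44.8% of cells with a UMI, exact 95% interval 38.6 to 51.2%) and at 471 CPM in 96 cells of the *Ccl21a* and *Lyve1* cluster (72.9%, 62.9 to 81.5%). In the colon it stood at 128 CPM in 178 cells of the former (33.1%, 26.3 to 40.6%), while 62 cells of the latter held 0 UMIs (upper limit 5.78%). Median depths were 4340 and 4936.5 UMIs per cell in the small intestine and 5538.5 and 4314.5 in the colon, in the same order. With 1 usable library per intestine this difference had no replicate check.

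In these cells *Dhrs3* showed a like split in the small intestine but not in the colon. It stood at 294 CPM in the *Ccl21a* and *Lyve1* cluster of the small intestine (71.9% of cells, 61.8 to 80.6%) and 95.0 CPM in that of the colon (37.1%). In the *Plvap* and *Flt1* cluster it stood at 49.1 CPM (17.9% of cells) and 80.5 CPM (31.5%). The sort was set against CD31, so these cells are what escaped it and not a sample of the endothelium.

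**Figure D5:**
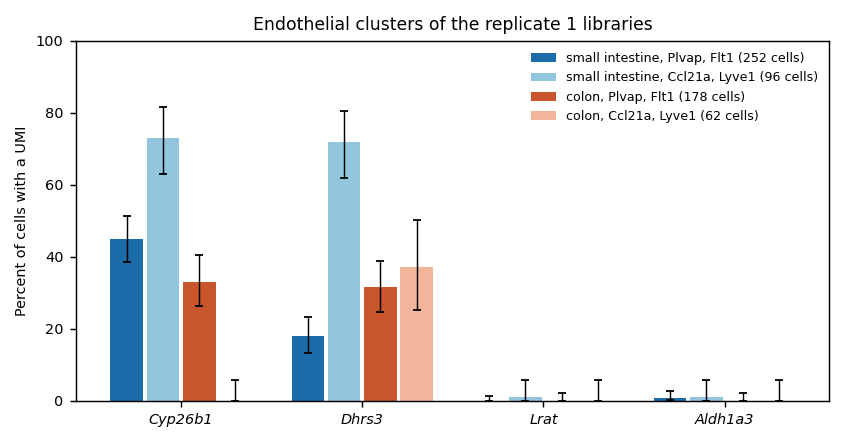
Percent of cells with a UMI (y axis, exact binomial 95% intervals) of *Cyp26b1*, *Dhrs3*, *Lrat* and *Aldh1a3* in the endothelial clusters led by *Plvap* and *Flt1* and by *Ccl21a* and *Lyve1* in the replicate 1 library of each intestine. *Cyp26b1* was found in 72.9% of cells of the small intestinal *Ccl21a* and *Lyve1* cluster and in 0% of the colonic one.

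Whether the change between the intestines differed between classes was tested with a class by intestine term in edgeR, adjusted over all genes. Between PDGFRαhi FB and Fgfr2-high FB 6 of 8 members passed at an adjusted p under 0.05, against 10.8% of 12478 genes, 3 with the higher value in PDGFRαhi FB (4.9% of genes) and 3 with the lower (5.91%). *Rbp4* rose more in Fgfr2-high FB than in PDGFRαhi FB, a difference of -4.52 ± 0.27 on the log2 scale (adjusted p = 5.78e-12). *Aldh1a3* fell further in PDGFRαhi FB, by a difference of -4.57 ± 0.23 (adjusted p = 1.66e-13), and *Dhrs3* rose more there, by 1.5 ± 0.22 (adjusted p = 1.72e-05, and 1.09 with 0.172 without small intestine replicate 2).

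*Lrat* fell less in PDGFRαhi than in Fgfr2-high FB by 3.14 ± 0.62 (edgeR adjusted p = 0.00108), a value that rested on the 19 UMIs of colon replicate 1, since it was 0.90 without that library (adjusted p = 0.878). *Aldh1a2* differed by 0.67 ± 0.17 (adjusted p = 0.00979), but by only 0.40 (0.412) with small intestine replicate 2 left out and by 0.47 (0.257) with colon replicate 1 left out. *Aldh1a1* differed by -0.67 ± 0.19 (adjusted p = 0.0223), which was lost without small intestine replicate 1 (0.203), small intestine replicate 2 (0.188) or colon replicate 2 (0.726). DESeq2 called neither *Aldh1a2* nor *Aldh1a1*, single cells gated by markers lost *Lrat*, *Dhrs3* and *Aldh1a1*, and the stricter *Fgfr2* gate lost *Lrat* and *Aldh1a2*.

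Between PDGFRαhi FB and CD81+ FB 3 of 9 members differed in their change, against 12.2% of 12125 genes, 1 with the higher value in PDGFRαhi FB (7.76% of genes) and 2 with the lower (4.46%). *Aldh1a3* fell further in PDGFRαhi FB by -6.36 ± 0.33 (edgeR adjusted p = 1.73e-09), and *Dhrs3* differed by 3.21 ± 0.26 (adjusted p = 3.6e-07), rising in PDGFRαhi FB while CD81+ FB stood lower in the colon within each replicate pair. *Rdh10* differed by -0.75 ± 0.24 (adjusted p = 0.0499), which was lost without small intestine replicate 2 (0.5), colon replicate 1 (0.077) or colon replicate 2 (0.73), and by DESeq2 and at the finer clustering.

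Clusters inside a class differed in these genes too, and are described without a test, since they were formed from the same cells, though without the retinoid genes among the features. Colonic PDGFRαhi FB comprised a cluster of 2261 cells and another of 1610 cells led by *Dmp1*, *Il1rl1* and *Nrg1*. The former held more *Rbp4* (1330 and 801 CPM in replicates 1 and 2, against 298 and 181 CPM), more *Aldh1a1* (336 and 522 against 141 and 209 CPM) and more *Aldh1a2* (163 and 96.6 against 26.0 and 9.01 CPM). *Dhrs3* and *Rdh10* were closer, with *Dhrs3* at 75.1 and 95.2 CPM against 49.6 and 69.2 CPM.

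Small intestinal CD81+ FB comprised a cluster of 2572 cells with more *Lrat* (146 and 216 CPM) and *Adh1* (287 and 101 CPM) and another of 806 cells with less of both (49.8 and 94.4 CPM of *Lrat*, 103 and 45.9 CPM of *Adh1*). The smaller cluster held more *Aldh1a2* (68.1 and 102 against 24.9 and 30.2 CPM) and *Aldh1a3* (46.5 and 65.2 against 17.1 and 23.0 CPM). Small intestinal Fgfr2-high FB had a cluster of 147 cells with *Aldh1a3* at 1650 and 1270 CPM, where the main cluster of 2561 cells held 727 and 593 CPM. In colonic Fgfr2-high FB *Aldh1a2* was held by the cluster of 1860 cells (54.2 and 36.8 CPM) and nearly absent from that of 670 cells (3.63 and 3.74 CPM).

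Beyond the 9 members, 48 further genes of the pathway were read in 10 lists. These comprised 6 genes of uptake, 6 binding proteins, 5 of esterification and ester breakdown, 9 that oxidise and 4 that reduce retinoids, 2 of acid synthesis, 2 of carotene cleavage, 2 of breakdown, 6 receptors and 6 known targets. PDGFRαhi FB had 2 of 27 tested genes higher in colon and 0 lower, against 0.826% and 0.731% of all genes. Fgfr2-high FB had 2 of 27 higher and 0 lower (0.877% and 0.556%), Fgfr2-low FB 1 of 27 higher and 0 lower (0.768% and 1%) and SMC 1 of 25 higher (0.754%). CD81+ FB had 0 calls of 24 in edgeR (5 at an unadjusted p under 0.05, and 0 by DESeq2), and pericytes 0 of 18 (2 at an unadjusted p under 0.05, and 0 by DESeq2). The sum of all FB had 1 of 33 higher (0.384%). The median log2 fold change of these genes lay between -0.12 and 0.16 over these 7 comparisons, and that of all genes between -0.01 and 0.06.

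The genes called were few and mostly low. *Rarg*, a retinoic acid receptor, stood at 3.32 and 4.28 CPM in small intestinal and at 38.8 and 32.0 CPM in colonic PDGFRαhi FB, a log2 fold change of 3.32 ± 0.32 (edgeR adjusted p = 0.0244), and it was also called in Fgfr2-high FB (8.02 and 6.25 against 40.6 and 37.1 CPM, 2.70 ± 0.29, adjusted p = 0.0318). *Cd36*, a scavenger receptor that takes up lipids, stood at 1.00 and 0.305 against 38.8 and 35.2 CPM in Fgfr2-high FB (6.59 ± 0.48, adjusted p = 0.0223). *Rarres1*, named for its response to retinoids, stood at 0.665 and 0.330 against 33.8 and 19.4 CPM in PDGFRαhi FB (5.95 ± 0.58, adjusted p = 0.0248).

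*Adh7*, an alcohol dehydrogenase that also oxidises retinol, was called in Fgfr2-low FB at 0 and 0.0517 against 5.35 and 4.07 CPM (6.31 ± 0.74, edgeR adjusted p = 0.0384). In SMC *Rarres1* was called from 0 UMIs in both small intestinal libraries to 40.4 and 21.6 CPM.

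These calls rested on both small intestinal libraries. Without small intestine replicate 1 or 2 the adjusted p of edgeR was 0.155 and 0.148 for *Rarg* and 0.118 and 0.159 for *Rarres1* in PDGFRαhi FB, and 0.162 and 0.328 for *Rarg* and 0.0938 and 0.224 for *Cd36* in Fgfr2-high FB. It was 0.13 and 0.299 for *Adh7* in Fgfr2-low FB (0.111 without colon replicate 2) and 0.0664 and 0.124 for *Rarres1* in SMC. With single cells gated *Rarg* was called in neither class (0.0923 and 0.051), and with the stricter *Fgfr2* gate neither *Rarg* (0.231) nor *Cd36* (0.0614) was called in Fgfr2-high FB. Joint clustering gave 0.0662 for *Adh7* and 0.0516 for *Rarres1* in SMC, which stood at 0.0579 with at least 1000 genes per cell.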

How the data were processed

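The authors sorted MSC from small intestine and colon of mouse, made droplet libraries with a 3′ or 5′ kit (the labels do not assign kits to libraries) and used Cell Ranger on mm10. Per the file headers its version was 3.0.2 for replicate 1 and 3.1.0 for replicate 2. The matrices that the authors deposited hold UMI counts for each gene and barcode without normalization. The members, gene lists and tests were chosen with earlier results of these data known.

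Cells needed 500 or more genes, 1000 or more UMIs and no more than 10% of UMIs from mitochondrial genes, and scrublet in scanpy 1.11.5 (expected rate 0.8% per 1000 barcodes) removed 6, 913, 32 and 580 doublets, from the libraries of small intestine (replicates 1 and 2) and then of colon (1 and 2). Each intestine was clustered with Seurat 5.3.0 (2000 variable features without retinoid genes, 30 components, resolution 0.5) and clusters were named from 13 marker lists. The naming rules, and the rule that only clusters of at least 2% of cells set the *Fgfr2* limit (50% of the highest), were set after the clusters had been seen, and a colonic cluster of 631 cells that scored as plasma cells was left out. It also held Fgfr2+ FB markers (638 and 688 CPM in replicates 1 and 2, against 622 and 450 in colonic Fgfr2-high FB), and no member's call was lost when it was kept. Differences from the study may come from these rebuilt names. Endothelial cells of replicate 1 served as the reference for free RNA. Replicate 2 held 5 in the small intestine and 24 in the colon, too few for a reference.

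Sums per library and class were tested with edgeR 4.0.16 in R 4.3.3 (filterByExpr, TMM, glmQLFit with a robust fit), adjusted by Benjamini-Hochberg over all genes of the fit, with library as a block for differences between classes. Alternatives were DESeq2 1.42.0, size factors of DESeq2 in edgeR, no filter, a replicate block, each library left out, at least 1000 genes, resolution 1.0, joint clustering and single cells gated. The stricter *Fgfr2* gate, set by clusters of any size, and the plasma-marked colonic cells kept were added after seeing the data. Of the wider lists, a gene was named if called in an FB class, and *Rarres1* in SMC was named after its values had been seen. The result of a gene from these lists is left out here. The steps were tested on simulated counts.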

Additional observations from a re-analysis of the deposited data

Results flagged for a closer look

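The change between the intestines differed between PDGFRαhi FB and Fgfr2-high FB for 6 of 8 members, against 10.8% of 12478 genes, by the class by intestine term of edgeR. The difference (colon over small intestine, log2, PDGFRαhi minus Fgfr2-high FB) was 3.14 for *Lrat*, 1.5 for *Dhrs3*, 0.67 for *Aldh1a2*, -0.67 for *Aldh1a1*, -4.57 for *Aldh1a3* and -4.52 for *Rbp4*. Leaving out 1 library ended the call of 4 of them. *Lrat* was 0.90 without colon replicate 1, *Dhrs3* 1.09 without small intestine replicate 2, and *Aldh1a2* 0.40 when small intestine replicate 2 was left out and 0.47 when colon replicate 1 was. With the stricter *Fgfr2* gate *Aldh1a2* was 0.04 and neither it nor *Lrat* (2.66) was called. The adjusted p of *Aldh1a1* was 0.203, 0.188 and 0.726 without small intestine replicate 1, small intestine replicate 2 and colon replicate 2.

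Between PDGFRαhi FB and CD81+ FB the same term passed for *Rdh10* (-0.75), *Dhrs3* (3.21) and *Aldh1a3* (-6.36), 3 of 9 members against 12.2% of 12125 genes. *Rdh10* passed at 0.0499 and was lost without small intestine replicate 2 (0.5), colon replicate 1 (0.077) or colon replicate 2 (0.73), and by DESeq2 (0.458).

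*Cyp26b1* gave signal in cells outside the classes compared, the endothelial cells that had passed the sort, at 298 CPM in small intestine replicate 1 and 99.5 CPM in colon replicate 1, where no FB class exceeded 4.35 CPM.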

How the results depend on the processing

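Of the changes between the intestines given with a fold, each kept its direction under every alternative. Counts of members called, with calls over all genes in brackets, changed as follows. In the sum of all FB, 1 (101) became 3 (587) with DESeq2, 2 (307) without a filter and 0 (0, with 1246 genes at an unadjusted p under 0.05) with single cells gated. In PDGFRαhi FB, 2 (179) became 4 (584) with DESeq2 and 1 (104) with single cells gated, and 603 genes were called without a filter. In CD81+ FB, 1 (90) became 3 (423) without a filter, and DESeq2 called 231 genes and the single-cell gate 35. In Fgfr2-high FB, 4 (170) became 2 (49) with single cells gated and 3 (266) with the stricter *Fgfr2* gate, and DESeq2 called 421 genes and the fit without a filter 520. In Fgfr2-low FB, 2 (212) became 4 (517) with DESeq2, and 494 genes were called without a filter, 120 with joint clustering and 26 with single cells gated. In SMC, 4 (243) stayed between 3 and 4, with 707 genes called without a filter and 134 with single cells gated. In pericytes, 0 became 1 (26) without a filter. For the difference between PDGFRαhi and Fgfr2-high FB, 6 (1348) became 3 (692) with single cells gated and 4 (660) with DESeq2, and for that from CD81+ FB 3 (1482) became 2 (781) with DESeq2. The cause of these shifts was not tested.

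Leaving out each library in turn gave 0 to 1 members called in all FB, 0 to 4 in PDGFRαhi FB, 1 to 2 in CD81+ FB, 0 to 5 in Fgfr2-high FB, 0 to 2 in Fgfr2-low FB, 4 to 5 in SMC, 0 in pericytes, and 3 to 5 and 2 to 3 for the differences. The counts of 0 in FB came without a small intestinal library, with 839 to 1074 genes at an unadjusted p under 0.05. A lone library is assumed there to vary like the other group.

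The labels do not say that the replicate numbers pair the libraries. Same-numbered libraries shared a Cell Ranger version and were closer in cell number, and their deviations from the group means correlated (r = 0.79 over 13802 genes). With replicate number as a block, 3 members were called in all FB (941 genes), 4 in PDGFRαhi FB (924), 2 in CD81+ FB (507), 4 in Fgfr2-high FB (785), 4 in Fgfr2-low FB (792), 4 in SMC (680), 0 in pericytes (11), and 6 (1653) and 3 (2345) for the differences. The block added *Aldh1a3* and *Rbp4* in all FB, *Lrat* and *Aldh1a2* in PDGFRαhi FB, *Adh1* in CD81+ FB and *Aldh1a3* and *Aldh1a1* in Fgfr2-low FB, and it lost none.

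The class with the highest level was that of the report for 14 or 15 of 15 pairs of gene and intestine with at least 200 UMIs under the 7 alternatives run. Pericyte sums held 50309 to 743630 UMIs, the fewest of the 6 classes in each library.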

Other observations

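Genes whose level followed a member over 24 sums of class and library were read as a description, among 11732 genes on the log2(CPM + 1) scale. The points share libraries, depth and cell classes. Closest to *Lrat* were *Cyp1b1* (Pearson r = 0.978) and *Hoxc5* (0.952), and closest to *Rbp4* were *Fbxo24* (0.881) and *Lmo3* (0.869). *Aldh1a1* was followed by *Lamb1* (0.926) and *Spats2l* (0.886), *Aldh1a2* by *Lsm2* (0.872) and *Scube1* (0.839), and *Aldh1a3* by *Mdk* (0.874) and *Cxcl16* (0.862). *Adh1* was followed by *Cd47* (0.915) and *Pla2g2e* (0.913), *Rdh10* by *Gm12216* (0.855) and *Tshz3* (0.853), and *Dhrs3* by *Ifrd1* (0.744) and *Htr1d* (0.709).

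Shares of cells that held transcripts of 2 steps at once were compared with the product of the single shares, without a test. In small intestinal Fgfr2-high FB thinned to 1000 UMIs per cell, 25.8% and 22.1% of cells of replicates 1 and 2 held both *Lrat* and *Aldh1a3*, where the product of the single shares was 24.4% and 20.6%. In small intestinal PDGFRαhi FB 17.9% and 16.1% held both *Rbp4* and *Aldh1a1*, against a product of 15.9% and 16.1%. In small intestinal PDGFRαhi FB *Lrat* and *Aldh1a3* were found together in 6.36% and 3.34% of cells (11 and 45 cells), against a product of 2.52% and 1.86%. Other pairs lay below the product. In the same class *Aldh1a1* and *Aldh1a3* were found together in 6.36% and 8.83% of cells, against 9.4% and 9.23%. For *Lrat* and *Rdh10* in small intestinal Fgfr2-high FB it was 5.16% and 15.6%, against 7.14% and 16.1%.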
